A study of Mus musculus with 14 samples.

Results

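Osteosarcomas were compared with a cultured osteoblast line to ask which functional groups of genes set the tumours apart from the line, and how evenly the tumours shared each difference. The tumour group held the 12 samples whose titles end in osteosarcoma, including 1 with a spelling slip in its title, and the reference was the 1 sample titled as the mc3T3 control, so that 13 of the 14 arrays in the series were compared. The tumours had arisen in p53+/- mice, which keep a single working copy of the p53 tumour suppressor gene, and the labels give no treatment for them. The mc3T3 cells were an untreated, non-tumorigenic mouse line grown in serum-containing medium. The remaining array, of a tumour labelled rhabdomyosarcoma, formed its own group in the model and added nothing to the estimate of spread. It did count in choosing which probe sets were bright enough to test and which stood for a gene. A solid tumour holds blood vessels, macrophages, osteoclasts and matrix-embedded cells beside the tumour cells, whereas the reference was 1 array of 1 cell line in culture. In bulk RNA, fewer cells of a type and less RNA per cell cannot be told apart, and growth in an animal, growth in culture and the tumour state are not separated by this design. The labels do not say whether the 12 tumours came from separate animals, so p-values measure the spread between these samples only.

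Osteosarcoma is a malignant bone-forming tumour whose cells resemble the osteoblast lineage. Osteoblasts build bone under the direction of bone morphogenetic proteins, Wnt ligands, insulin-like growth factors and Notch signals, each tuned by secreted antagonists and binding proteins. Osteoclasts, which share their origin with macrophages, dissolve bone by pumping protons and lysosomal proteases onto its surface, and growing bone is threaded by blood vessels.

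Signals below are array signals in arbitrary units, given for mc3T3 and as the lowest, median and highest of the 12 tumours. A difference is the mean log2(signal + 30) of the 12 osteosarcomas minus that of mc3T3, with its standard error (n = 12 tumours and 1 mc3T3 array). The added 30 units keep dim probe sets stable and understate the change of genes with low signal. A gene rose or fell, in the wording used here, where the adjusted p from limma was under 0.05 and the difference was at least 1. Because mc3T3 was a lone array, the test asks whether it lay outside the spread of the tumours and assumes that it varies as an osteosarcoma does.

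Cell type markers were read before the gene groups. Osteoblast markers were present in mc3T3 only in part. Col1a1, the main bone collagen chain, had a signal of 62259.4 in mc3T3 and of 30025.5 to 58683.7 in the tumours. Sp7, an osteoblast transcription factor, had a signal of 1514.6 against 1158.2 to 4132.1. By contrast, 6 of 8 osteoblast markers were higher in the tumours, where 8.59% of all genes tested were, among them Alpl, Dmp1 and Phex, which act in mineralisation. All 10 osteoclast markers, 11 of 12 macrophage markers and 9 of 10 endothelial markers were also higher. The mean log2 level of the macrophage markers was 6.32 in mc3T3 and lay between 10.83, in osteosarcoma 7, and 12.90, in osteosarcoma 2. Endothelial markers stood at 5.88 in mc3T3 and at 8.77 to 10.52 in the tumours. Skeletal muscle markers varied most, from 6.16 in osteosarcoma 4 to 14.78 in osteosarcoma 6, with 6.44 in mc3T3. Lymphocyte, granulocyte, erythroid and keratinocyte markers gave 0 calls with limma, although 4 of their 25 tested members had an unadjusted p under 0.05. Pairs of osteosarcomas correlated across probe sets at 0.916 to 0.953 and each tumour with mc3T3 at 0.850 to 0.880. For beta-actin, the 3' probe set divided by the 5' probe set, a measure that rises as RNA breaks down, gave 1.32 in mc3T3 and 1.42 to 2.13 in the tumours, highest in osteosarcoma 12.

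Across 11815 genes, 1015 were higher in the osteosarcomas (8.59%) and 541 were lower (4.58%). Increases were larger, with a median of 2.64 on the log2 scale against -1.84 for the decreases. There were 112 increases and 14 decreases of at least 5. The median over all genes was -0.02. All 1556 called genes had mc3T3 outside the range of the 12 tumours. The reverse did not hold, because mc3T3 lay below all 12 tumours for 2542 genes (21.5%) and above all 12 for 2486 (21%), so that position alone is a weaker statement than a call. Among the increases, 720 had a signal under 200 in mc3T3, and among the decreases 178 had a tumour mean under 200. No detection calls were used, so a signal at that level cannot be told from background. Since no called gene overlapped mc3T3, a lack of overlap stated below for a called gene adds nothing to its call.

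**Figure D1:**
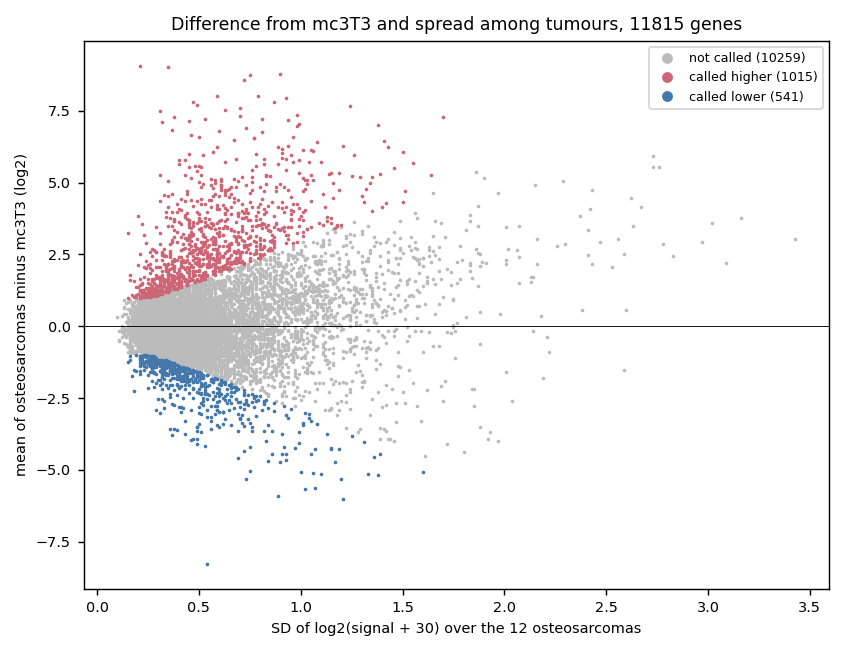
Each point is 1 of 11815 genes, with the SD of log2(signal + 30) over the 12 osteosarcomas on the horizontal axis and the mean of the osteosarcomas minus mc3T3 (log2) on the vertical axis. Red points are the 1015 genes called higher, blue points the 541 called lower and grey points the rest; the difference needed for a call grows with the spread among the tumours, and increases reach further from 0 than decreases.

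The spread between tumours set which differences passed. The SD over the 12 tumours had a median of 0.43 on the log2 scale, and 80% of genes lay between 0.26 and 0.90. Its median was 0.52 among the genes called higher and 0.42 among those called lower. Over all genes tested, called or not, 846 were at least 2-fold above mc3T3 in every tumour and 353 at least 2-fold below it. In the other direction, 509 genes (4.31%) were at least 2-fold above mc3T3 in some tumour and at least 2-fold below it in another. Single tumours held between 2001 genes (osteosarcoma 7) and 2367 genes (osteosarcoma 12) at least 2-fold above mc3T3. They held between 1425 genes (osteosarcoma 9) and 2470 genes (osteosarcoma 12) at least 2-fold below it.

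The 6 called genes with the smallest spread among those with a mean signal of at least 1000 showed how even a difference could be. Dtx4, a regulator of Notch signalling, had a signal of 178.9 in mc3T3 and of 1664.1, 1940.7 and 2418.9 in the lowest, median and highest tumour, a difference of 3.26 ± 0.25 (adjusted p = 1.18e-06). Rheb, the small GTPase that activates the growth kinase mTOR, had 2850.7 against 7101.5 to 10083.9 (1.60 ± 0.26), and Dgkz, a diacylglycerol kinase, 955.9 against 2884.9 to 4131.4 (1.79 ± 0.26). Capn2, a calcium-dependent protease, went the other way, with 8502.6 against 2886.6 to 4214.8 (-1.26 ± 0.25). The remaining members of the 6 were Nubp1 (1.00 ± 0.25) and Cfap20 (-1.02 ± 0.26), whose differences sit at the threshold. The difference of Nubp1 was just under 1 without osteosarcoma 3, 8 or 12 (adjusted p = 0.0144 to 0.0255). That of Cfap20 was under 1 with quantile normalization, a larger added constant or averaged probe sets.

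Beyond the leading bone, osteoclast and macrophage genes, the ranks from 9 to 20 in each direction held genes of several roles. Lcp1, an actin-bundling protein of white blood cells, had 2.6 in mc3T3 and 4390.8, 7439.2 and 11767.4 in the lowest, median and highest tumour (7.82 ± 0.48, adjusted p = 1.47e-07). Fabp4, a fatty acid carrier of fat cells, macrophages and capillaries, had 6.5 against 4007.1, 6324.8 and 15732.3 (7.52 ± 0.61, adjusted p = 1.88e-06). Itm2a, a membrane protein of chondrocyte and myoblast differentiation, had 3.6 against 416.7, 5193.8 and 33902.7 (7.28 ± 1.55, adjusted p = 0.00593). All 3 stood clear of mc3T3 in every tumour, evenly for Lcp1 and over a wide range for Itm2a. Among the decreases, Otor, a secreted protein of cochlea and cartilage, had 3042.6 in mc3T3 and 2.4, 48.6 and 288.2 in the tumours (-5.13 ± 1.02, adjusted p = 0.0035). Lcn2, an iron-carrying secreted protein, had 5561.9 against 52.9, 159.8 and 2837.4 (-4.56 ± 1.25, adjusted p = 0.0259) and did not pass in the 6 m tumours alone.

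In all, 45 lists of genes by function held 1178 members, of which 997 were tested, 99 were named on the array but too dim to test and 82 are not analysed here. Of the tested members 167 were higher (16.8%, against 8.59% of all genes) and 63 lower (6.32%, against 4.58%). The mean level of a list was above mc3T3 in all 12 tumours for 22 lists and below it in all 12 for 3, with mc3T3 inside the range of the tumours for the other 20. The 3 lower lists were limb and skeletal patterning factors, the actin and adhesion cytoskeleton, and the insulin-like growth factor (IGF) axis. The highest were Fc receptor and ITAM signalling, chemokine receptors, Toll-like receptors, cadherins and junctions, the vacuolar proton pump and lysosomal enzymes. For 4 lists the median and the mean over members had opposite signs, namely metalloproteinases, nuclear receptors, ATF4 targets and heat shock proteins.

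**Figure D2:**
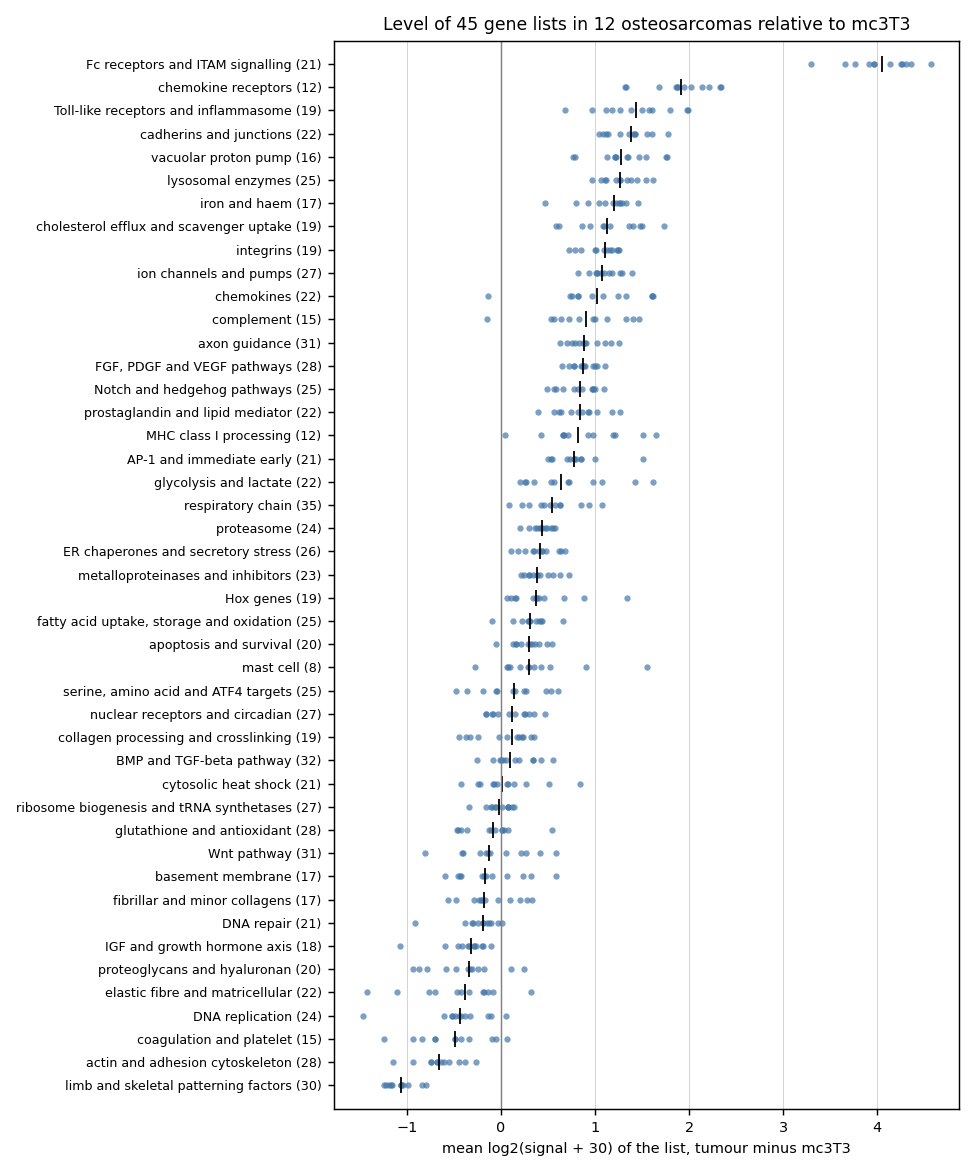
Each row is 1 of 45 gene lists with its number of tested genes, each of the 12 points is an osteosarcoma and the black tick is their median; the horizontal axis is the mean log2(signal + 30) of the list in that tumour minus the same mean in mc3T3. The points of 22 lists lie entirely to the right of 0 and those of 3 lists entirely to the left.

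Bone morphogenetic protein (BMP) and transforming growth factor beta (TGF-beta) ligands changed in opposite directions within the same family. Of 32 tested members of the pathway 7 rose (21.9%, against 8.59% of all genes) and 4 fell (12.5%, against 4.58%), with a median difference of 0.11. Bmp2, an inducer of bone formation, had a signal of 17.1 in mc3T3 and of 181.8, 558.6 and 1376.5 in the lowest, median and highest tumour, a difference of 3.74 ± 0.76 (adjusted p = 0.00402). Bmp4, its close relative, had 12297.5 in mc3T3 and 116.9, 503.3 and 976.3 in the tumours, a difference of -4.68 ± 0.79 (adjusted p = 0.0011). All 12 tumours therefore stood above mc3T3 for Bmp2 and below it for Bmp4, without overlap, as for every called gene. Bmp8a, another BMP ligand of bone, rose by 2.70 ± 0.57, from 67.2 to between 354.4 and 1327.8. The growth factor Tgfb1 had 978.0 in mc3T3 and 1652.4 to 4224.3 in the tumours (1.48 ± 0.43, adjusted p = 0.0339), and its relative Tgfb3 had 3567.0 against 507.7 to 1595.0 (-1.73 ± 0.50, adjusted p = 0.0321). Neither of these 2 passed among the 6 tumours with m titles or the 4 with c titles taken alone, where the adjusted p reached 0.0967 for Tgfb1 and 0.146 for Tgfb3. Bmp5, a further BMP ligand, did not pass over the 12 (adjusted p = 0.202) but did in the 6 m tumours alone (adjusted p = 0.00459), and its 12 tumours ran from 5.9 in osteosarcoma 7 to 2376.7 in osteosarcoma 12, against 30.1 in mc3T3.

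Receptors and antagonists of these ligands also differed. The type I receptor Tgfbr1 rose by 1.78 ± 0.42, and so did Eng (2.33 ± 0.58), a co-receptor of vessel lining cells. Bambi, a decoy receptor that dampens TGF-beta and BMP signals, had 248.2 in mc3T3 and 1029.9 to 6955.6 in the tumours (3.46 ± 0.81, adjusted p = 0.0109). The secreted antagonists Fst, Chrdl1 and Grem1 fell. Fst, which binds activins, had 7926.5 in mc3T3 and 89.8, 373.8 and 1253.9 in the lowest, median and highest tumour (-4.23 ± 0.90, adjusted p = 0.00579). Chrdl1, which binds BMP ligands, had 3674.7 against 20.1 to 620.3 (-5.06 ± 0.93, adjusted p = 0.00204). Grem1, another BMP antagonist, had 827.8 against 15.1 to 331.5 (-2.84 ± 0.79, adjusted p = 0.0274), with an adjusted p of up to 0.292 among the alternatives, the highest with the 4 c tumours alone. For each of the 3 antagonists the highest tumour remained below mc3T3.

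**Figure D3:**
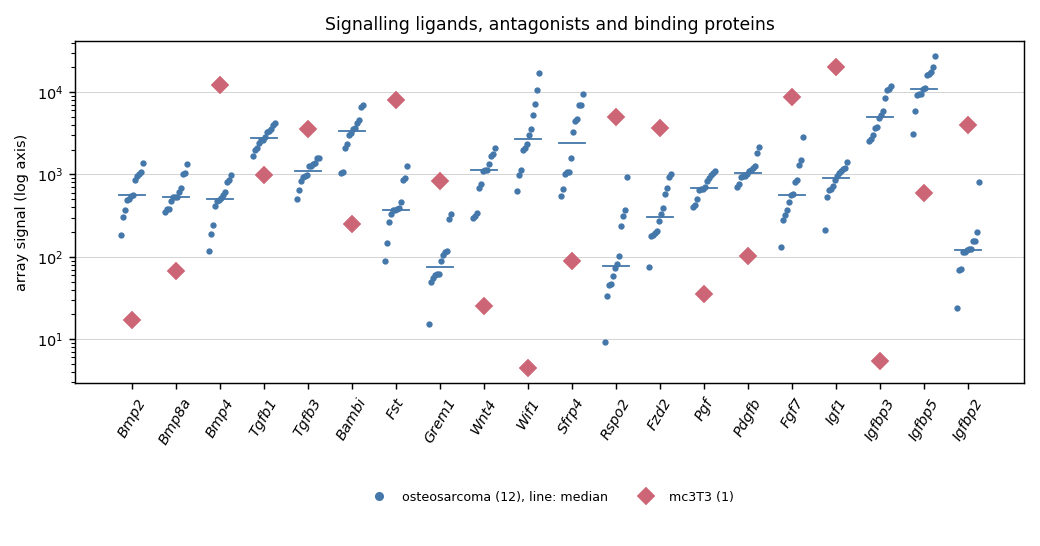
Array signal on a log axis for 20 genes of the BMP, TGF-beta, Wnt, vascular and platelet-derived growth factor, fibroblast growth factor and IGF pathways, with 1 blue point for each of the 12 osteosarcomas, a line at their median and a red diamond for the mc3T3 array. For every gene drawn the diamond lies outside the 12 points, above them for ligands such as Bmp4, Fgf7 and Igf1 and below them for Bmp2, Wif1 and Igfbp3.

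Wnt ligands, receptors and antagonists changed in both directions (median -0.13). Of 31 tested members 4 were higher (12.9%, against 8.59% of all genes) and 4 lower (12.9%, against 4.58%). Wnt4, a ligand active in skeletal development, had 25.3 in mc3T3 and 296.1, 1117.7 and 2092.6 in the lowest, median and highest tumour (4.04 ± 0.89, adjusted p = 0.00717). Rspo2, a secreted amplifier of Wnt signals, had 4958.6 in mc3T3 and 9.3, 77.5 and 935.6 in the tumours (-5.13 ± 1.22, adjusted p = 0.0116). The groups did not overlap for either gene, but Rspo2 spanned a wide range, lowest in osteosarcoma 12 and highest in osteosarcoma 11. Among receptors, Fzd2 had 3710.1 against 75.9 to 1019.2 (-3.37 ± 0.94, adjusted p = 0.0276), Fzd8 fell by 2.05 on the log2 scale and the co-receptor Lrp6 fell by 1.39. The secreted antagonist Wif1 showed the opposite course, with 4.5 in mc3T3 and 635.2 in the lowest, 2686.8 in the median and 17170.6 in the highest tumour (6.46 ± 1.29, adjusted p = 0.00369). Sfrp4, a secreted frizzled-related antagonist, rose by 4.30 ± 1.31 (adjusted p = 0.0414) but did not pass without osteosarcoma 4, 5 or 9 (adjusted p = 0.0521 to 0.0543). Axin2, a textbook target of the pathway, had 45.9 in mc3T3 and 72.4 to 361.4 in the tumours and did not pass (1.32 ± 0.58, adjusted p = 0.154).

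In the IGF axis 1 of the 2 ligands and some of the binding proteins passed. Igf1, a growth factor for bone, had 20098.7 in mc3T3 and 211.0, 903.3 and 1415.0 in the lowest, median and highest tumour, a difference of -4.60 ± 0.66 (adjusted p = 0.000294). Every tumour lay far below the line. The other ligand, Igf2, did not pass (-0.77 ± 1.22, adjusted p = 0.73), with 1451.6 in mc3T3 inside a range of 133.6 to 5140.3. Igfbp3, which binds circulating IGF, had 5.5 in mc3T3 and 2515.1, 5042.7 and 12015.6 in the tumours, a difference of 7.23 ± 0.77 (adjusted p = 2.32e-05). Igfbp5, abundant in bone matrix, rose from 602.5 to between 3113.7 and 27221.1 (4.17 ± 0.79, adjusted p = 0.00263). Igfbp2, another binding protein, had 3990.3 against 23.6 to 800.5 (-4.66 ± 0.87, adjusted p = 0.00225). Mc3T3 lay outside the range of the tumours for these 3 genes. Igfbp4 (-1.53 ± 0.61, adjusted p = 0.117) and Igfbp7 (0.01 ± 0.47), further binding proteins, did not pass. Igfbp6 fell by 3.02 on the log2 scale (adjusted p = 0.0468), a call lost when any of osteosarcomas 2, 3, 4, 8, 9, 11 or 12 was left out (adjusted p = 0.0524 to 0.0591). Stc1, a secreted inhibitor of the proteases that cut IGF binding proteins, rose by 2.80 ± 0.74. The receptor Igf1r had 1846.4 against 233.8 to 1114.0 and did not pass (adjusted p = 0.067), although it did without osteosarcoma 2 or 11 (adjusted p = 0.0367 and 0.0408). Igf1r also passed with averaged probe sets and in the 6 m tumours alone, and 2 of its 3 probe sets were called lower. Over the 18 tested genes 3 rose (16.7%, against 8.59% of all genes) and 3 fell (16.7%, against 4.58%). The median was -0.71, and 5 fell without osteosarcoma 2.

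Vessel growth factors and their receptors made up most of the increases in the fibroblast growth factor (FGF), platelet-derived growth factor (PDGF) and vascular endothelial growth factor (VEGF) pathways. Of 28 tested genes 9 rose (32.1%, against 8.59% of all genes) and 2 fell (7.14%, against 4.58%). Their median was 1.31, but 0.49 without the filter on dim probe sets. Pgf, a placental ligand of the VEGF family, had 35.3 in mc3T3 and 404.0 to 1104.5 in the tumours (3.5 ± 0.47, adjusted p = 0.000176). Pdgfb, which recruits vessel-wall cells, had 102.6 against 710.2 to 2171.7 (3.10 ± 0.46, adjusted p = 0.000372). Receptors of vessel lining cells rose with them, Kdr by 3.72 ± 0.54, Flt4 by 3.29 ± 0.47, Tie1 by 3.12 ± 0.67 and Tek by 2.62 ± 0.64. Kdr, Tie1 and Tek were each highest in osteosarcoma 10 and lowest in osteosarcoma 5. These 3 genes also belong to the 10 endothelial markers, 9 of which rose, and the part of vessel content in the list was not tested. Vegfa, the best-known vessel growth factor, did not pass, with 1237.2 in mc3T3 inside the tumours' range of 591.7 to 3136.3. Vegfb, a VEGF relative active in fat uptake, had 1106.6 against 150.8 to 516.3 (-1.74 ± 0.42), and Fgf7, a growth factor made by mesenchymal cells for epithelia, had 8723.3 against 133.3 to 2827.4 (-3.76 ± 1.05).

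Notch genes that rose included ligand, receptor and targets. The receptors Notch1, Notch2 and Notch3, the ligand Jag1 and the target Hey2 had no probe set called. Over Notch and hedgehog genes 9 of 25 tested members were higher (36%, against 8.59% of all genes) and 3 lower (12%, against 4.58%), with a median of 0.36. The endothelial Notch ligand Dll4 had 5.1 in mc3T3 and 127.4 to 403.4 in the tumours (2.88 ± 0.46), and the receptor Notch4 had 17.7 against 326.0 to 1057.8 (3.76 ± 0.52, adjusted p = 0.000213). Both had endothelial roles, and the endothelial marker level was above mc3T3 by 2.89 to 4.63 in the tumours; its part was not tested. The target genes named next were higher in every tumour. Hey1 had 12.6 in mc3T3 and 297.8, 736.9 and 1048.2 in the lowest, median and highest tumour (3.92 ± 0.61, adjusted p = 0.000537), Hes1 rose by 2.47 ± 0.36, Heyl by 2.88 ± 0.63 and Nrarp by 2.62 ± 0.62. In hedgehog signalling the transducer Smo (-1.47 ± 0.36) and the co-receptor Cdon (-2.91 ± 0.58) fell, whereas the transcription factor Gli2 rose by 3.08 ± 0.75. Pth1r, counted among the increases of the Notch and hedgehog list, also belongs to the osteoblast markers. The receptor Pth1r, through which parathyroid hormone and its relative act on bone cells, had 211.9 in mc3T3 and 2693.7, 6406.9 and 10796.2 in the tumours (4.59 ± 0.63, adjusted p = 0.000203), without overlap.

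Guidance cues first described in axons changed in both directions (median 0.43). Of 31 tested members 9 were higher (29%, against 8.59% of all genes) and 5 lower (16.1%, against 4.58%). Sema6d, a transmembrane semaphorin, had 4.2 in mc3T3 and 1181.4, 2216.4 and 3342.5 in the lowest, median and highest tumour (5.96 ± 0.51, adjusted p = 3.19e-06). Sema4d, an osteoclast semaphorin that restrains bone formation, had 191.3 against 1909.4 to 5718.4 (3.71 ± 0.46), and the secreted cue Slit3 had 5.3 against 434.0 to 1652.5 (4.93 ± 0.59). In the other direction Ntn1, the secreted cue netrin-1, had 3023.2 in mc3T3 and 134.2 to 548.3 in the tumours (-3.31 ± 0.55, adjusted p = 0.000933). Ephrin receptors were split. Epha3 had 41.0 against 741.5 to 9533.5 (5.25 ± 0.97), Epha4 had 552.1 against 10.3 to 110.8 (-2.93 ± 0.53), and Ephb3 fell by 2.36 on the log2 scale. Mc3T3 lay outside the tumour range for each of these genes.

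Lipid mediators gave 4 increases (18.2%, against 8.59% of all genes) and 1 decrease (4.55%, near the 4.58% of all genes) among 22 tested genes (median 0.95). S1pr3, a receptor for sphingosine 1-phosphate, had 8.5 in mc3T3 and 1822.1, 5157.8 and 19863.0 in the lowest, median and highest tumour (7.03 ± 0.92, adjusted p = 0.000137). Hpgd, which inactivates prostaglandins, had 3.1 against 357.5, 4090.2 and 15786.2 (7.01 ± 1.26, adjusted p = 0.00181). Both were raised in every tumour, over a range of more than 10-fold between tumours. Ptgs2, the inducible prostaglandin synthase, did not pass, with 575.4 in mc3T3 inside a range of 87.4 in osteosarcoma 12 to 4344.4 in osteosarcoma 11. The lysophosphatidic acid receptor Lpar4 fell by 3.21 on the log2 scale, the sole decrease over the 12; 2 genes fell without osteosarcoma 5 and 3 without osteosarcoma 11.

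Among 17 fibrillar and minor collagens 2 rose (11.8%, against 8.59% of all genes) and 2 fell (11.8%, against 4.58%), with a median of -0.57. Col22a1, a collagen of tissue junctions, had 5.4 in mc3T3 and 1283.7, 5126.0 and 16981.1 in the lowest, median and highest tumour (7.18 ± 0.87, adjusted p = 7.72e-05). Col8a2, a short-chain collagen, had 7385.2 against 57.4 to 1220.8 (-4.28 ± 1.06). Neither group overlapped, whereas the chain Col1a2 of bone collagen differed by -0.01 ± 0.28, with 61961.1 in mc3T3 inside a range of 48533.3 to 73380.1. Of 20 tested proteoglycans and hyaluronan genes 0 passed with limma, while 7 had an unadjusted p under 0.05; up to 2 passed in each direction when 1 of osteosarcomas 2, 4, 5, 6, 7 or 11 was left out. Of 22 elastic fibre and matricellular genes 2 rose (9.09%; 1 gene without osteosarcoma 9) and 2 fell (9.09%). The decreases were Ltbp2, a microfibril protein (6962.5 against 91.2 to 981.1, -4.46 ± 0.98), and Fbln5, needed for elastic fibre assembly (5033.2 against 272.3 to 2114.6, -2.91 ± 0.77). Of 17 basement membrane genes 2 rose (11.8%) and 1 fell (5.88%). Egfl7, a matrix protein of vessels that also belongs to the endothelial markers, rose by 3.44 ± 0.54, Col15a1, a collagen at the base of vessels and muscle, by 2.28 ± 0.66, and the linker protein Nid2 fell by 2.79 on the log2 scale.

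Of 23 metalloproteinases and their inhibitors 2 rose (8.70%) and 1 fell (4.35%), near the shares of all genes, 8.59% and 4.58%. The count of decreases was 0 without osteosarcoma 1, 4 or 9 and 2 without osteosarcoma 8. Mmp9, the gelatinase of osteoclasts, had 2637.3 in mc3T3 and 22194.6 to 48589.4 in the tumours (3.64 ± 0.42, adjusted p = 4.37e-05). Mmp23 had 11.6 against 751.3 to 5609.3 (5.86 ± 0.85). Mmp2, a gelatinase of stromal cells, was lower in all 12 tumours at 2894.2 to 13782.1, against 17893.2, without passing (adjusted p = 0.235). Among 19 collagen processing genes 2 fell (10.5%) and 0 rose. P4ha3, a prolyl hydroxylase subunit, had 2054.5 in mc3T3 and 41.4 to 515.1 in the tumours (-3.48 ± 0.69, adjusted p = 0.0035). The crosslinking enzyme Loxl1 ranged from 219.8 in osteosarcoma 7 to 8767.7 in osteosarcoma 10, on either side of 3935.7 in mc3T3.

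Cadherins and junction proteins gave 10 increases (45.5%, against 8.59% of all genes) and 2 decreases (9.09%, against 4.58%) among 22 tested genes, while 10 did not pass. Their median was 1.73, but 0.25 without the filter on dim probe sets, which kept 22 of 31 named members. Gja1, the main connexin of osteoblasts and osteocytes, had 1541.7 in mc3T3 and 11674.1, 17333.3 and 29321.0 in the lowest, median and highest tumour (3.55 ± 0.43, adjusted p = 7.26e-05). Cadm1, an adhesion molecule of the immunoglobulin family, had 63.1 against 1052.9 to 12272.6 (5.72 ± 1.02), and the neural cadherin Cdh2 had 703.3 against 2314.3 to 6966.8 (2.68 ± 0.50). All 3 stood clear of mc3T3 in every tumour. Cdh5 (3.43 ± 0.76) and Cldn5 (3.41 ± 0.46), junction proteins of vessel lining cells, rose as well; Cdh5 belongs to the endothelial markers too and was highest in osteosarcoma 10. Cldn1, an epithelial claudin, had 345.8 in mc3T3 and 3.2 to 48.1 in the tumours (-3.01 ± 0.50).

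Integrins showed 6 increases (31.6%, against 8.59% of all genes) and 1 decrease (5.26%, against 4.58%) among 19 tested genes. Their median was 0.91, but 0.62 without the filter on dim probe sets. Itgb2, the beta chain of leukocyte integrins, had 31.1 in mc3T3 and 2258.3 to 7035.0 in the tumours (5.99 ± 0.46, adjusted p = 1.16e-06). Itgb3, part of the vitronectin receptor by which osteoclasts hold on to bone, had 212.7 against 714.5 to 3018.2 (2.78 ± 0.61). It also belongs to the osteoclast markers, whose level, like that of the macrophage markers, was above mc3T3 in all 12 tumours. The part of these cells in the integrin list was not tested. The laminin-binding chain Itga6 rose by 3.21 ± 0.52, and Itga10, a collagen-binding chain of cartilage, by 2.68 ± 0.57. Itga1, another collagen-binding chain, had 1411.2 in mc3T3 and 143.4 to 684.2 in the tumours (-2.28 ± 0.63, adjusted p = 0.0272). It did not pass in the 6 m tumours alone (adjusted p = 0.103), and 2 integrins fell without osteosarcoma 2.

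The actin and adhesion cytoskeleton was lower in the tumours as a list, with all 12 tumour levels below mc3T3 by 0.26 to 1.15 on the log2 scale. Of 28 tested genes 16 were below mc3T3 in all 12 tumours, as were 21% of all genes. Only 4 fell (14.3%, against 4.58% of all genes) and 1 rose (3.57%, against 8.59%), with a median of -0.75. Myh10, a non-muscle myosin heavy chain, had 9158.1 in mc3T3 and 200.6, 1100.4 and 2154.2 in the lowest, median and highest tumour (-3.41 ± 1.00, adjusted p = 0.0351). Vcl, the adhesion plaque protein vinculin, had 11850.9 against 2862.0 to 8718.2 (-1.5 ± 0.43), and Zyx, another protein of adhesion plaques, had 3717.6 against 829.0 to 2059.5 (-1.54 ± 0.41). The decreases were clear of overlap but moderate next to their spread. Without osteosarcomas 6 and 9, those with the highest skeletal muscle markers, an alternative chosen after seeing the data, the differences of Vcl (-1.54, adjusted p = 0.0508) and Myh10 (-3.49, adjusted p = 0.0509) were as large and missed the threshold. Vcl did not pass in the 6 m tumours either (-1.29, adjusted p = 0.13). Zyx did not pass with probe sets of a gene averaged or with the 4 c tumours. Nes, the intermediate filament nestin of vessels and progenitor cells, rose by 2.96 ± 0.65 but did not pass with averaged probe sets.

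Patterning factors of the limb and skeleton had the lowest median level of the 45 lists relative to mc3T3. All 12 tumours had a lower mean level than mc3T3, by 0.80 to 1.24 on the log2 scale. Of 30 tested genes 8 fell (26.7%, against 4.58% of all genes) and 2 rose (6.67%, against 8.59%), with a median of -0.51. In all 12 tumours 15 of the 30 were below mc3T3, as were 21% of all genes. Foxf1, a forkhead factor of mesenchyme, had 1697.0 in mc3T3 and 24.5, 79.2 and 120.1 in the lowest, median and highest tumour (-4.10 ± 0.49, adjusted p = 6.97e-05). Six2, a homeobox factor of facial and skeletal progenitors, had 2330.5 against 34.4 to 302.9 (-4.19 ± 0.71, adjusted p = 0.0011). Both genes were more than 5-fold lower in every tumour than in the line. Dlx1 (-3.64 ± 0.72), a craniofacial homeobox factor, En1 (-3.44 ± 0.57), active in skull and limb, and Twist2 (-2.73 ± 0.52), which holds osteoblast maturation back, fell as well. Tbx2, a T-box factor, rose by 2.89 ± 0.66. Of 19 Hox genes, which mark position along the body, only Hoxb2 passed (5.26% higher, against 8.59% of all genes). Hoxb2 had 51.8 against 436.6 to 2357.6 (3.96 ± 0.69, adjusted p = 0.00147), and 2 Hox genes were higher without osteosarcoma 2, 3, 7 or 10. Without osteosarcoma 3, 1 Hox gene also fell. Hoxc10, which marks lumbar and hindlimb position, spread from 1.4 in osteosarcoma 1 to 1134.7 in osteosarcoma 6, with 70.7 in mc3T3.

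Further regulators of transcription showed a mixed picture. The immediate early list gave 3 increases among 21 tested genes (14.3%, against 8.59% of all genes) and 0 decreases (median 0.77). Dusp1, a phosphatase that switches off stress kinases, had 192.8 in mc3T3 and 959.3 to 3591.8 in the tumours (3.0 ± 0.53, adjusted p = 0.0017), and the AP-1 factor Fosl2 had 980.2 against 2145.4 to 6307.2 (1.99 ± 0.44). Fosl1, its relative, ranged from 2.3 in osteosarcoma 8 to 1010.9 in osteosarcoma 11, with 171.0 in mc3T3 between them. Among 27 nuclear receptors and clock genes 3 rose (11.1%, against 8.59% of all genes) and 3 fell (11.1%, against 4.58%). Bhlhe40, a clock and hypoxia-responsive repressor, rose by 3.64 ± 0.52, while the orphan receptor Nr2f2 (-2.03 ± 0.35) and the thyroid hormone receptor Thra (-2.05 ± 0.41) fell. Hmga2, a chromatin protein of embryonic mesenchyme, had 1607.8 in mc3T3 and 2.2 to 161.5 in the tumours (-4.74 ± 0.84, adjusted p = 0.00169), and its call held under every alternative run.

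The mean level of the 25 tested lysosomal genes was above mc3T3 by 0.97 to 1.62 on the log2 scale, and that of the 16 pump genes by 0.77 to 1.76. Of the lysosomal genes 9 rose (36%, against 8.59% of all genes), 1 fell (4%, against 4.58%) and 15 did not pass (median 0.84). In every tumour 15 of the 25 were above mc3T3, as were 21.5% of all genes. Of the pump genes 5 rose (31.2%, against 8.59%), 0 fell and 11 did not pass (median 1.28). In every tumour 11 of the 16 were above mc3T3, against the same 21.5% of all genes. Osteoclasts and macrophages are rich in both, and their markers were higher in all 12 tumours as well, the osteoclast markers by 3.71 to 5.45; the part of these cells in the 2 lists was not tested.

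Proton pump genes were read alongside their promoters, because many lysosomal genes carry a short palindrome, CACGTG, that is the core of the motif bound by the lysosomal regulator Tfeb and also by other factors of its class. The promoters below are RefSeq windows of 300 bases, from 250 before to 50 after the annotated start, on build GRCm38.p6. They show where this palindrome, printed in capitals, sits in a pump subunit and 2 lysosomal proteases that rose, and in a membrane protein that did not pass. Atp6v0b lies at chr4:117887280-117887579 on the minus strand, Ctsa at chr2:164833523-164833822 on the plus strand, Ctsd at chr7:142387778-142388077 on the minus strand and Lamp1 at chr8:13158911-13159210 on the plus strand.
Atp6v0b: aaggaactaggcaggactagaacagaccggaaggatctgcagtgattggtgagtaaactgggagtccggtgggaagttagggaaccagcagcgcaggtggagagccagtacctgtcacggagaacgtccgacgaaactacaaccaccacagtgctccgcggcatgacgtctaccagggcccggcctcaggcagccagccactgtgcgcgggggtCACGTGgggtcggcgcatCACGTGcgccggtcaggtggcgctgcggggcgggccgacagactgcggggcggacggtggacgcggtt
Ctsa: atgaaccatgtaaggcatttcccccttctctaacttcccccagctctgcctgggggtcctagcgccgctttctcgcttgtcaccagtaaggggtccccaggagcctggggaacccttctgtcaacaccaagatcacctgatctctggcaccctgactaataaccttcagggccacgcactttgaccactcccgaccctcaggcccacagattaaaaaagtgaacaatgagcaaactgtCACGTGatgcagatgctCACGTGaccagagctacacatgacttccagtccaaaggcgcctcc
Ctsd: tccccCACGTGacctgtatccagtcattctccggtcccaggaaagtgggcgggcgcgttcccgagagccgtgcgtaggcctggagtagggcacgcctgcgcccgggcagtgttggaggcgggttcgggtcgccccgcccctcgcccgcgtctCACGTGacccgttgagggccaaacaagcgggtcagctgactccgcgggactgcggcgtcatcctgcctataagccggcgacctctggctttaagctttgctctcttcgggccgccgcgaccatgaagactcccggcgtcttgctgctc
Lamp1: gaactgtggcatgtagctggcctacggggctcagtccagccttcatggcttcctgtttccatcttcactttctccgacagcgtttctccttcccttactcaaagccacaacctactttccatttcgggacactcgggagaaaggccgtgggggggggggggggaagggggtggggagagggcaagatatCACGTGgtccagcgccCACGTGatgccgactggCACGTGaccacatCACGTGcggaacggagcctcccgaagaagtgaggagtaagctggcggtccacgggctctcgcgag
CACGTG reads the same on both strands. It was present 2 times each in the printed windows of Atp6v0b, Ctsa and Ctsd, and 4 times in that of Lamp1. Ctsa has another window, at chr2:164832622-164832921, without the palindrome. A gene with several windows was counted where any of them held the palindrome. Of the lysosomal genes with a promoter in the table, 8 of 22 held it (36.4%), as did 4 of 11 pump genes (36.4%). Among all genes tested 11.8% held it, and 8.09% of all genes with such a window did. Within the lysosomal list it was found in 3 of 9 genes that rose and in 4 of 12 that did not pass. Among pump genes the counts were 1 of 3 and 3 of 8. A match describes these letters only and does not show that a factor binds there.

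The members followed their roles unevenly. Among proteases, Ctsc, which activates immune-cell proteases, had 42.1 in mc3T3 and 6163.9, 12439.5 and 15933.2 in the lowest, median and highest tumour (7.27 ± 0.40, adjusted p = 5.19e-08). Ctsd, the main aspartic protease of lysosomes, had 3459.4 against 5386.5 to 9759.8 (1.25 ± 0.30, adjusted p = 0.0113), and Ctsa, a protective protease, had 3748.7 against 6053.7 to 13543.7 (1.44 ± 0.36). All 3 were higher in every tumour, Ctsc by far the most. Gm2a, a lipid-presenting cofactor, had 230.2 in mc3T3 and 2433.7 to 5327.1 in the tumours (3.76 ± 0.39), and Hexa, the enzyme it assists, had 3383.1 against 9067.4 to 24140.3 (2.20 ± 0.46). Psap, the precursor of sphingolipid activators, rose by 1.24 ± 0.28. Lamp1, an abundant membrane protein of the lysosome, did not pass, with 10819.8 in mc3T3 inside a range of 7132.9 to 18932.8 (0.06 ± 0.40). Gaa, which breaks down glycogen in lysosomes, was lower at 2206.0 to 3631.0 against 5523.6 (-1.03 ± 0.30, adjusted p = 0.035), a call lost without osteosarcoma 3 (adjusted p = 0.0501). Ctsa and Psap did not pass when the probe sets of each gene were averaged, nor Ctsa in the 6 m tumours alone.

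Pump subunits rose in both parts of the complex. Atp6v0d2, a subunit counted with the osteoclast markers and not in the pump list, had its 2 probe sets called higher. Atp6v1c1, of the part that burns ATP, had 1889.0 in mc3T3 and 6566.3, 12890.9 and 20517.4 in the lowest, median and highest tumour (2.64 ± 0.48, adjusted p = 0.00183). Atp6v0b, of the membrane part, had 1450.7 against 4917.6, 6773.9 and 16401.9 (2.39 ± 0.57, adjusted p = 0.0121). Atp6ap2, an assembly partner also known as the prorenin receptor, had 2209.3 against 10861.5 to 27786.7 (2.96 ± 0.46). No tumour overlapped mc3T3 for these 3, and osteosarcoma 12 was the highest in each. Tcirg1, the osteoclast form of the membrane subunit, was above mc3T3 in all 12 tumours (1603.5 to 4378.2 against 982.4) without passing (adjusted p = 0.082). Its counterpart Atp6v0a1 ranged from 58.6 to 681.9, on either side of 471.4 in mc3T3 (-0.89 ± 0.75, adjusted p = 0.479).

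**Figure D4:**
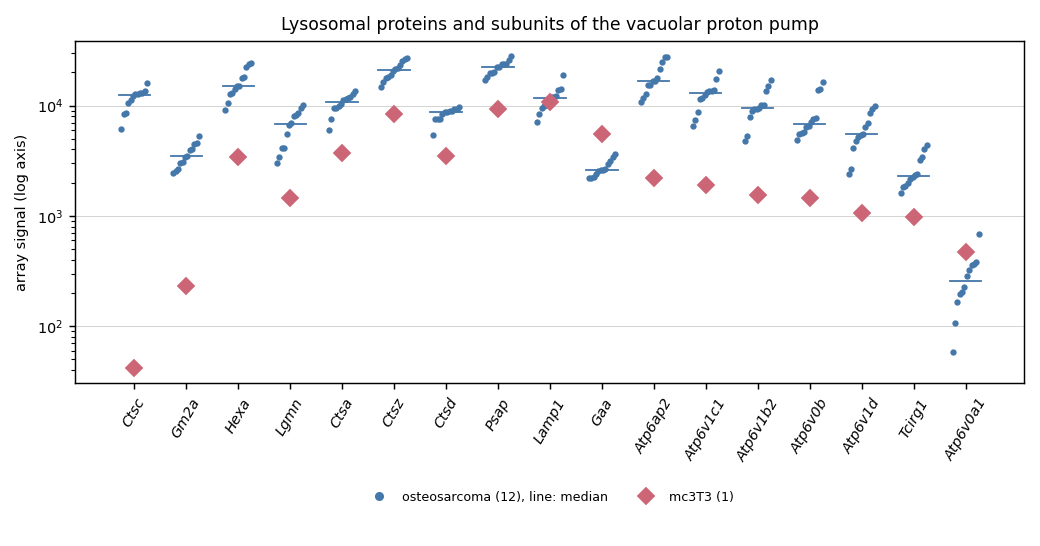
Array signal on a log axis for 10 lysosomal genes and 7 genes of the vacuolar proton pump, with 1 blue point for each of the 12 osteosarcomas, a line at their median and a red diamond for the mc3T3 array. The diamond lies below the points for most genes, within them for Lamp1 and Atp6v0a1, and above them for Gaa.

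Among 19 genes of cholesterol efflux and scavenger uptake 6 rose (31.6%, against 8.59% of all genes), 13 did not pass and 0 fell with limma. Their median was 0.82, while 1 fell without osteosarcoma 1, 2, 4 or 8. As for the lysosomal genes, the part of the macrophages counted by the marker level was not tested. Vldlr, a lipoprotein receptor, had 32.3 in mc3T3 and 2340.3, 5629.3 and 10940.8 in the lowest, median and highest tumour (6.47 ± 0.64, adjusted p = 1.21e-05). The cholesterol exporters Abcg1 (4.38 ± 0.47) and Abca1 (2.30 ± 0.50) rose, as did the scavenger receptors Stab1 (3.51 ± 0.75) and Msr1 (3.25 ± 0.70). Of 17 iron and haem genes 6 rose (35.3%, against 8.59%), 11 did not pass and 0 fell (median 0.87). Tfrc, the transferrin receptor through which cells take up iron, had 1026.8 against 3118.0 to 11691.2 (2.52 ± 0.58), and Cd163, the macrophage receptor for haemoglobin, had 3.8 against 140.6 to 761.2 (3.56 ± 0.76). The heavy ferritin chain Fth1 was below mc3T3 in all 12 tumours and did not pass, at 20388.7 to 44108.9 against 53499.4 (adjusted p = 0.209). Alas2, the haem enzyme of red cell precursors, peaked at 4540.8 in osteosarcoma 6 and did not pass.

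Fc receptors and ITAM adaptors, the machinery by which myeloid cells and osteoclasts turn surface contacts into kinase signals, had the largest share of increases among the 45 lists. Of 21 tested genes 19 rose (90.5%, against 8.59% of all genes) and 0 fell (median 3.82). In all 12 tumours 20 were above mc3T3, as were 21.5% of all genes. The adaptors came highest. Tyrobp had 83.9 in mc3T3 and 10766.0, 14239.4 and 30601.3 in the lowest, median and highest tumour (7.16 ± 0.45, adjusted p = 2.10e-07), and Fcer1g had 52.4 against 7030.3, 11558.6 and 16053.3 (7.12 ± 0.36, adjusted p = 1.85e-08). Both stood far above mc3T3 in every tumour. Their mc3T3 signals were under 200 and cannot be told from background, so the fold is uncertain. The receptors Fcgr2b (6.26 ± 0.88) and Fcgr3 (6.03 ± 0.85) bind antibody, and the kinases Syk (1.76 ± 0.43) and Btk (3.82 ± 0.45) and the phospholipase Plcg2 (3.66 ± 0.40) pass the signal on. Trem2, a receptor paired with Tyrobp, was above mc3T3 in all 12 tumours and missed the threshold (3.44 ± 1.10, adjusted p = 0.0523), while it passed without osteosarcoma 7 (adjusted p = 0.0255). Ptprc, the common antigen of white blood cells, had 6.8 against 2182.3 to 8697.5. The macrophage marker level stood above mc3T3 by 4.51 to 6.58 in the same tumours, and its part in these increases was not tested.

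Chemokines were less uniform. Of 22 tested ligands 5 rose (22.7%, against 8.59% of all genes) and 2 fell (9.09%, against 4.58%), with a median of 0.92. Osteosarcoma 7 was the lowest tumour with a list level below that of mc3T3 by 0.14 on the log2 scale. Ccl9, made by myeloid cells and osteoclasts, had 61.9 in mc3T3 and 3492.7, 12622.3 and 26025.1 in the lowest, median and highest tumour (6.90 ± 0.69, adjusted p = 1.39e-05), and Ccl8, a monocyte attractant, had 25.6 against 790.9 to 7970.9 (5.77 ± 0.92). Both were lowest in osteosarcoma 7 and highest in osteosarcoma 4. In the other direction Cx3cl1, a membrane-bound chemokine, had 2571.1 in mc3T3 and 91.6 to 394.6 in the tumours (-3.67 ± 0.51, adjusted p = 0.000217). Cxcl12, the stromal ligand of Cxcr4, was lower than mc3T3 in all 12 tumours but spread from 782.1 to 15362.4 against 27436.8 and did not pass (adjusted p = 0.217). Its receptor Cxcr4 rose by 4.27 ± 0.67, and Ccr1, a receptor of myeloid cells, by 6.59 ± 0.50. The largest decrease among the ligands was that of Cxcl5, with 3793.7 in mc3T3 and 0.5 to 491.1 in the tumours (-6.01 ± 1.11). Cxcl5 did not pass with the c tumours alone.

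Complement genes moved in both directions. The C1q chains C1qa, C1qb and C1qc were counted with the macrophage markers and not in this list, and their probe sets were called higher. Of 15 tested genes 5 rose (33.3%, against 8.59% of all genes) and 3 fell (20%, against 4.58%). Their median was 1.54, but 0.68 without the filter on dim probe sets. Serping1, the inhibitor of the classical cascade, had 161.6 in mc3T3 and 2145.2 to 24953.8 in the tumours (5.31 ± 1.05, adjusted p = 0.00356). The receptor C3ar1 rose by 4.16 ± 0.83 and the membrane inhibitor Cd59a by 3.95 ± 0.61. The largest decreases were those of Masp1 (4277.9 against 11.9 to 1126.1, -5.06 ± 1.46) and Clu (9402.0 against 227.4 to 3276.3, -3.31 ± 0.98). Neither passed in the m or the c tumours taken alone, and Clu did not pass without osteosarcoma 3. C1ra, a serine protease of the C1 complex, had 9230.5 in mc3T3 and 485.2 to 2168.9 in the tumours (-3.22 ± 0.67, adjusted p = 0.0047). Of pattern recognition genes 5 of 19 rose (26.3%, against 8.59% of all genes) and 0 fell. The increases were led by the inflammasome adaptor Pycard (26.9 against 796.4 to 3931.3, 5.06 ± 0.59) and the fungal receptor Clec7a (4.12 ± 0.85). Tlr4, the receptor for bacterial endotoxin, did not pass (0.86 ± 0.41, adjusted p = 0.191). The antigen-presenting class I chains H2-D1 (2.60 ± 0.36) and H2-K1 (2.57 ± 0.65) rose, while their partner B2m did not pass (0.44 ± 0.24, adjusted p = 0.267). In the clotting list 2 of 15 genes fell (13.3%, against 4.58% of all genes) and 0 rose (1 without osteosarcoma 7). F3, the tissue factor that starts coagulation, had 9290.0 in mc3T3 and 56.0, 233.3 and 901.0 in the lowest, median and highest tumour (-5.12 ± 0.99, adjusted p = 0.00294).

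Ion channels gave 6 increases (22.2%, against 8.59% of all genes) and 1 decrease (3.7%, against 4.58%) among 27 tested genes. Their median was 0.64, but 0.42 without the filter on dim probe sets. Kcnk6, a background potassium channel, had 68.1 in mc3T3 and 1141.5 to 2822.8 in the tumours (4.37 ± 0.35, adjusted p = 1.88e-06). Ano1, a calcium-activated chloride channel, had 15.6 against 1024.7 to 4396.3 (5.57 ± 0.73), and Kcnk1, another potassium channel, had 1.9 against 485.4 to 5925.7 (5.95 ± 0.89). Cacna1c, the pore of the L-type calcium channel, fell by 2.40 on the log2 scale, and 2 channel genes fell without osteosarcoma 7. Each of these genes had mc3T3 outside the range of the tumours.

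Of 22 glycolysis genes 3 rose (13.6%, against 8.59% of all genes) and 0 fell (median 0.24), namely Aldoc (4.40 ± 0.66) and Hk3 (3.19 ± 0.60), enzymes of the pathway, and the glucose transporter Slc2a3 (3.96 ± 0.86). Ldha, which makes lactate, was above mc3T3 in all 12 tumours without passing (11085.0 to 28748.0 against 10495.1, adjusted p = 0.162). Respiratory chain subunits gave 2 increases among 35 (5.71%), both at the edge of the threshold, with a median of 0.44. Sdhb (1.24 ± 0.37) was lost without osteosarcoma 5, 6, 8, 10 or 11 (adjusted p = 0.0504 to 0.0529), and Ndufa2 (1.27 ± 0.38) without osteosarcoma 1, 9 or 10 (adjusted p = 0.0503 to 0.0516). The count ran from 0 without osteosarcoma 10 to 4 without osteosarcoma 7. The mitochondrial list level was nonetheless above mc3T3 in all 12 tumours, by 0.09 to 1.07. The fatty acid list had 2 increases (8%) and 1 decrease (4%) among 25 genes, close to the 8.59% and 4.58% of all genes. The fatty acid carrier Fabp3 rose by 3.35 ± 0.72, and the chain-lengthening enzyme Elovl6 had 3034.3 against 437.4 to 831.4 (-2.19 ± 0.36). Gsr, which regenerates glutathione, rose by 2.06 ± 0.33, and Gstt1, a glutathione transferase, fell by 3.09 on the log2 scale.

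DNA replication genes gave 0 calls with limma among 24 tested, with 2 at an unadjusted p under 0.05, and DNA repair genes 0 among 21, also with 2. Their medians were -0.41 and -0.20. Mcm5, a subunit of the replicative helicase, had 2853.2 in mc3T3 inside a tumour range of 931.4 to 4650.6. The tumour levels of the replication list ran from 1.47 below mc3T3, in osteosarcoma 12, to 0.05 above it. Ribosome biogenesis and tRNA synthetases had 1 increase among 27 (3.7%, against 8.59% of all genes), lost without osteosarcoma 3, 8 or 10. Their 1 decrease (3.7%, against 4.58%) was the nucleolar protein Nolc1, which fell by 1.31 on the log2 scale. The proteasome had 1 increase among 24 genes (4.17%, against 8.59%) and a list level 0.20 to 0.57 above mc3T3 in all 12 tumours. Of 26 genes for folding in the endoplasmic reticulum 3 rose (11.5%, against 8.59% of all genes) and 0 fell. Atf6, a sensor of misfolded protein there, had 318.6 against 777.2 to 1211.2 (1.59 ± 0.27, adjusted p = 0.00112), whereas the chaperone Hspa5 did not pass (0.25 ± 0.30). Of 20 apoptosis genes the survival factors Mcl1 (1.91 ± 0.38) and Bcl2 (2.18 ± 0.36) rose (10%, near the 8.59% of all genes) and 0 genes fell. Bcl2 did not pass with the probe sets averaged. Atf3, a stress-induced transcription factor, rose by 3.16 ± 0.47, and Casp12, an inflammatory caspase, reached 12605.0 in osteosarcoma 1 against 220.1 in osteosarcoma 7 and 864.5 in mc3T3.

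Genes on the sex chromosomes separated the line from most tumours. Xist, the RNA that silences an X chromosome in female cells, had a signal of 90.0 in mc3T3, of 112.1 in osteosarcoma 6 and of 1311.7 to 9250.4 in the other 11 tumours. It did not pass over the 12 (adjusted p = 0.0553) and passed without osteosarcoma 6 (adjusted p = 0.00162). The Y-linked Kdm5d had 1612.8 in mc3T3 and 2.9 to 179.0 in the tumours, highest in osteosarcoma 6 (-5.05 ± 0.71). Eif2s3y, also Y-linked, had 1326.9 against 1.8 to 540.9, again highest in osteosarcoma 6, and did not pass in the 6 m tumours alone (adjusted p = 0.0613). Uty, on the Y chromosome too, had 396.1 against 5.2 to 50.5. The labels used here give no sex for the tumours or the line, so differences of sex and of tumour state cannot be told apart for these genes.

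How the 12 tumours differed among themselves was read from the list levels. Osteosarcoma 7 had the lowest level in 18 of the 45 lists and the highest in 0. It was the lowest in Fc receptor, Toll-like receptor, complement, chemokine and elastic fibre lists, and it had the lowest macrophage marker level of the 12. Osteosarcoma 12 was lowest in 8 lists, including DNA replication and DNA repair, and it had the highest 3' over 5' quotient for beta-actin, 2.13. Osteosarcoma 11 was highest in 10 lists, among them immediate early genes and glycolysis, with Wif1, Rspo2, Ptgs2 and Fosl1 at their highest there. Osteosarcoma 6 was highest in 6 lists, including Hox genes and heat shock proteins, and had the highest skeletal muscle marker level. The mast cell list reached 1.55 above mc3T3 in osteosarcoma 9. The part of marker levels, RNA integrity or any other property of a tumour in these differences was not tested.

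**Figure D5:**
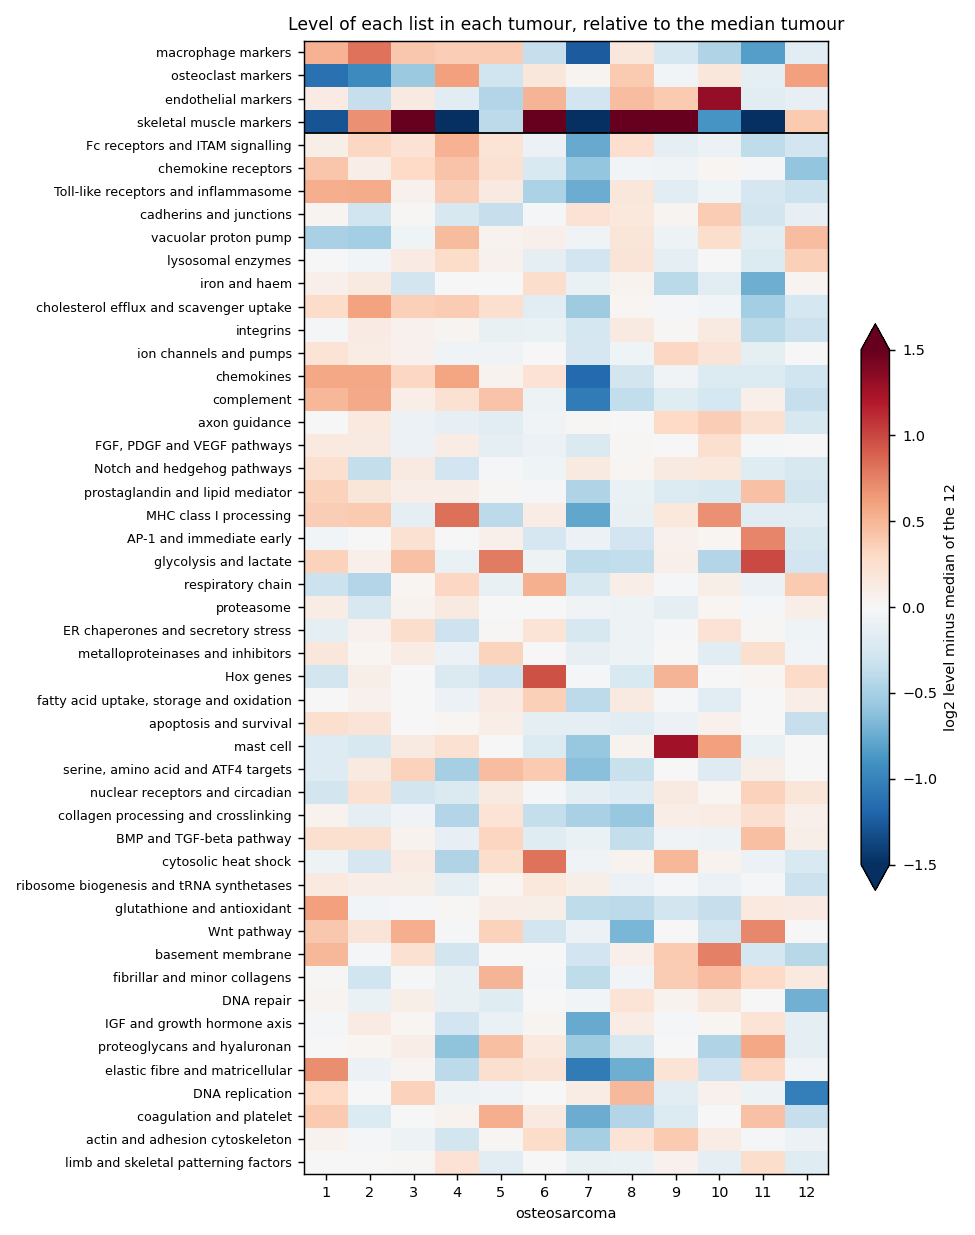
Rows are 4 cell type marker lists, above the line, and the 45 functional lists; columns are the 12 osteosarcomas, and colour gives the mean log2(signal + 30) of the list in that tumour minus the median of the 12, red for above and blue for below. The skeletal muscle row passes the ends of the colour scale at 1.5 in both directions, osteosarcoma 7 is blue in the immune lists at the top and osteosarcoma 12 is blue in DNA replication and DNA repair.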

How the data were processed

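Total RNA was biotin-labelled and hybridised to 14 mouse arrays of 45101 probe sets. The deposited values are array signals (intensity, linear scale) made by the authors with GCOS, which the submitters' processing notes name. Its version and settings: not given in the sources used here. The deposited 2% trimmed mean was 500 on every array, 0 columns were identical, and the number of arrays limits the precision. Groups came from titles, since descriptions did not separate them; tumours were numbered in accession order.

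Values were rescaled to a trimmed mean of 500 and analysed as log2(signal + 30). Probe sets reaching 200 on at least 1 array were kept, and the brightest stood for its gene. Of 5120 genes with several, 0 had calls in opposite directions. Other probe sets of a called gene could go uncalled. Only 1 of 3 was called for Tgfbr1, Sema4d, Abca1 and Slc2a3, and 1 of 4 for Bcl2. Annotation gave 1 symbol for 34945 probe sets, several genes for 932 and none for 9160. Differences were fitted over 14 arrays in 3 groups with limma 3.58.1 (R 4.3.3, two-sided, Benjamini-Hochberg over 11815 genes, 11 residual and 3.56 prior degrees of freedom). The fit was also run on simulated data in which mc3T3 was given the spread of the tumours. That run cannot test whether mc3T3 varies as a tumour does. Probe sets of different genes are not compared.

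The members and lists were chosen with earlier results of these data known, and support nothing independently. The named genes were chosen as follows, and not each of them is described above. Per list they were the 2 largest called increases and decreases, the member with the largest SD and at most 1 uncalled textbook member. Over all genes they were ranks 9 to 20 in each direction. The 6 called genes with the smallest SD at a mean of at least 1000 were also taken. Sex-linked genes and further list members were added after their values were seen. There were 23 alternatives, 1 of them (without osteosarcomas 6 and 9) chosen after seeing the data.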

Additional observations from a re-analysis of the deposited data

How the results depend on the processing

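No paired analysis was possible because the labels give no replicate numbers and mc3T3 is 1 array. Of 234 named genes that were called, 108 kept the call under all 23 alternatives, 18 lost it when 1 tumour was left out, 115 lost it with the 4 c tumours alone and 0 reversed. With 1 control array, no alternative tests how mc3T3 cultures vary. Leaving out each osteosarcoma in turn gave 936 to 1104 genes higher and 486 to 603 lower. With the 4 c tumours alone 448 were higher and 124 lower, 540 of these 572 being called in all 12 too, and the share of increases was 78.3% against 65.2%; fewer samples leave less power. Of 1035 list medians under the alternatives, 993 stayed within 1 SD of the main value. The others were as follows, and the cause was not tested. Adding 10 units in place of 30 gave 4.68 for Fc receptors and -0.76 for limb patterning. Adding 100 gave 0.84 for complement, 0.90 for chemokine receptors, 3.03 for Fc receptors, 1.12 for FGF, PDGF and VEGF, 0.67 for prostaglandins, 0.66 for integrins and 1.31 for cadherins. Without the filter on dim probe sets, values were 0.68 for complement, 0.49 for FGF, PDGF and VEGF, 0.05 for Hox genes, 0.62 for integrins, 0.25 for cadherins and 0.42 for ion channels. A filter at 500 gave 2.06 for chemokine receptors, 4.91 for Fc receptors, 1.49 for Toll-like receptors, -0.28 for mast cell genes (0.25 at the filter of 200), -0.68 for Wnt, 1.12 for FGF, PDGF and VEGF, -0.58 for DNA repair, -1.48 for limb patterning, 0.47 for immediate early genes, 1.65 for integrins and 2.44 for cadherins. Averaging probe sets gave 1.10 for FGF, PDGF and VEGF, 0.57 for Notch and hedgehog, -0.75 for limb patterning, 1.49 for cadherins and 0.45 for ion channels. Without the rhabdomyosarcoma array cadherins had 2.25. The 6 m tumours gave 1.11 for FGF, PDGF and VEGF, -0.75 for limb patterning and 1.15 for integrins. The 4 c tumours gave 1.61 for Toll-like receptors, -0.24 for mast cell genes, 0.55 for BMP and TGF-beta, 0.88 for the proton pump, 0.21 for apoptosis, -0.72 for limb patterning and 1.25 for integrins.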
